A study of Saccharomyces cerevisiae with 12 samples.

Results

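The 32 genes described here encode the subunits of the budding yeast proteasome. They were taken from a list of subunit names, every array spot annotated to one of them was used, and spots of a gene were averaged. All 32 were found, among 5574 named genes. By position in the complex, 7 encode the alpha ring and 7 the beta ring of the 20S core, 10 the base and 8 the lid of the 19S regulatory particle. The list covers the subunits of the particle itself apart from SEM1, a small lid component that was kept with the assembly factors. No value was available for SEM1 here.

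The proteasome degrades proteins that carry ubiquitin chains. Its 20S core is a stack of rings: the alpha rings gate the entrance, and the beta rings hold the cutting sites. The 19S particle caps the core. Its base carries a ring of ATPases that unfold substrates, and its lid carries the enzyme that removes ubiquitin. In yeast most subunit genes share a promoter element bound by the transcription factor Rpn4, itself a very short-lived proteasome substrate, so that subunit genes are known to move together when proteasome activity falls.

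RNA of a deletion mutant of Saccharomyces cerevisiae (channel 1) was hybridised together with RNA of its wild type FY2 (channel 2) to each two-channel spotted array. The mutants were FY31, deleted for snf2, whose product is the motor ATPase of the chromatin remodeller Snf/Swi, and YPS1, deleted for swi1, which encodes a DNA-binding subunit of the remodeller. Cells grew in minimal medium or in YPD, a rich medium. The 4 groups, called snf2 minimal, swi1 minimal, snf2 rich and swi1 rich, had 3 arrays each. Each mutant is a single strain, and no rescued strain was set beside it. The comparisons address dependence on the remodeller, by mutant and by medium.

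Values are log2 ratios of mutant over wild type, centred on the median gene of each array, so 0 means the same change as the median gene. The labels do not give the direction of the deposited ratios. Wild type over mutant was taken as likely and every value was then turned, because ScanAlyze, the scanning program, divides channel 2 by channel 1 and the labels list FY2 ahead of the mutant. Read the other way round, each gene given as higher would be lower. The deleted genes did not settle it, and replicate 1 did not either, with SNF2 at 0.43 on snf2 minimal and -0.68 on snf2 rich, and SWI1 at 1.35 on swi1 minimal and -0.49 on swi1 rich. SNF2 was 0.79 and 1.00 on replicates 2 and 3 of snf2 minimal and 0.69 and 0.65 on those of snf2 rich, where a deletion would lower it, and it was -0.11, 0.00 (0.004), -0.08 and -0.72 on the corresponding swi1 arrays. Of the SWI1 spots, 1 read -0.83 and -0.46 on swi1 minimal and -1.33 on swi1 rich replicate 2, while the other read 1.25 and 0.57 on swi1 rich. The groups are therefore those of the arrays labelled snf2 and swi1.

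The tests used the 8 arrays of replicates 2 and 3, which shared 1 platform (n = 2 per group). Replicate 1, on 2 other platforms, 1 for minimal and 1 for rich medium, was set beside them without a test. On replicate 1 a difference between media therefore cannot be told apart from one between platforms. On the 8 arrays 5299 to 8192 of 8832 probes were measured, and snf2 rich replicate 3 lacked 40.0% of its values. Of the 32 subunit genes, 22 were measured on all 8 arrays. The 12 arrays correlated positively in 66 of 66 pairs (r from 0.19 to 0.86 across genes). Signal over background and depth are unknown, the number of arrays limits the precision, and separate cultures are not recorded for the replicates, so that p-values reflect array-to-array spread, which may be technical. Fewer cells and less RNA per cell cannot be told apart in such bulk RNA. A gene was called when limma gave a Benjamini-Hochberg adjusted p, over all genes tested, below 0.05; errors are limma's standard errors.

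In minimal medium the subunit genes lay slightly above the median gene in both mutants, and in rich medium they lay near it. The median over subunit genes on an array was 0.29 and 0.19 on snf2 minimal and 0.18 and 0.22 on swi1 minimal. It was -0.05 and -0.02 on snf2 rich and 0.07 and 0.10 on swi1 rich. The 4 minimal arrays thus lay above the 4 rich arrays. Replicate 1 did not show the shift in minimal medium: its medians were 0.01 (0.006) for snf2 minimal, -0.01 (-0.006) for swi1 minimal, -0.20 for snf2 rich and -0.09 for swi1 rich. Within an array the SD over subunit genes was 0.18 to 0.40 on the 8 arrays, and that over all genes 0.55 to 0.70.

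**Figure D1:**
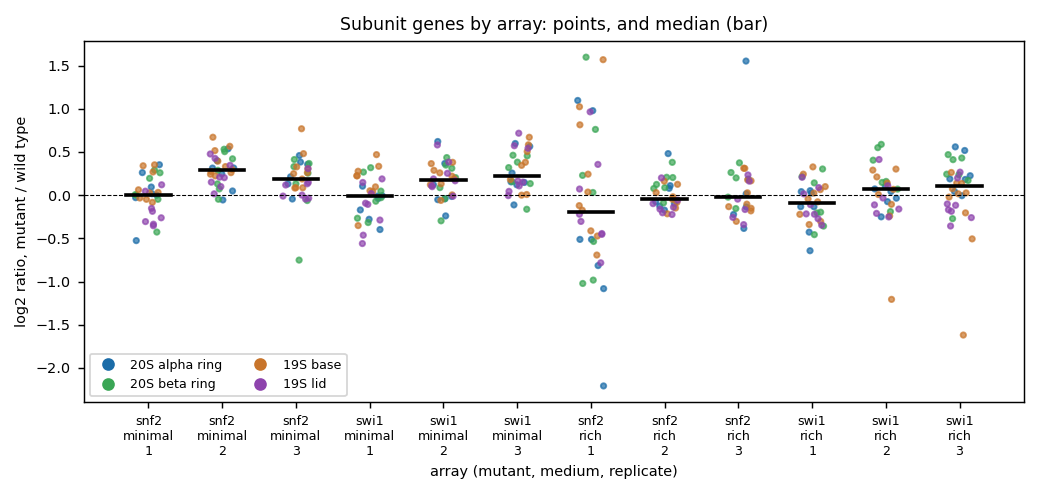
Log2 ratio (mutant over wild type, centred, vertical axis) of every subunit gene measured on each of the 12 arrays (horizontal axis), with 1 point per gene coloured by subcomplex and a bar at the median. The medians of replicates 2 and 3 lie between 0.18 and 0.29 in minimal and between -0.05 and 0.10 in rich medium, those of replicate 1 between -0.20 and 0.01, and the points spread most widely on snf2 rich replicate 1.

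In snf2 minimal 9 of 31 subunit genes tested were called higher and 0 lower, against 12.8% of all 5307 genes called higher, 16.4% called lower and 29.2% in all. The share of subunit genes called was thus that of the background, and all 9 calls lay on 1 side. Their median was 0.26, against 0.006 over all genes, and 28 of 31 lay above 0. In swi1 minimal 9 of 30 were called higher and 0 lower, against 13.7% and 14.8% of 5354 genes, or 28.5% in all. The median there was 0.14, against 0.0025 over all genes, and 27 of 30 lay above 0. At an unadjusted p under 0.05, 17 of 31 (54.8%) and 13 of 30 (43.3%) subunit genes passed, against 41.5% and 41.0% of all genes, so the second share was near the background.

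In rich medium the calls went both ways. In snf2 rich 1 of 24 was called higher and 1 lower, against 19.5% and 22.2% of 3698 genes, or 41.7% in all, so that fewer subunit genes were called than the background share. In swi1 rich 5 of 29 were called higher and 1 lower, against 19.1% and 21.7% of 5026 genes, or 40.8% in all. The medians were 0.02 and 0.06. Over the 4 groups, 14 subunit genes were called in at least 1 (43.8%), against 56.4% of 5557 genes, and 18 in none. Those 18 were PRE1, PRE3, PRE5, PRE6, PRE7, PRE9, PUP2 and SCL1 of the core and RPN1, RPN2, RPN3, RPN5, RPN8, RPN11, RPN12, RPT3, RPT4 and RPT6 of the regulatory particle, with estimates between -0.34 and 0.74.

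These counts rest on both arrays of a group. In snf2 minimal 0 subunit genes were called higher and 1 lower (PRE7) without replicate 2, and 2 (RPN13 and RPT5) were called higher without replicate 3. In swi1 minimal 2 were called higher without replicate 2 (RPT5 and RPN8, the latter not among the original calls), and 0 without replicate 3. In snf2 rich both original calls were lost without either array, and PRE6 was called higher without replicate 2. In swi1 rich PRE8 and PRE10 were called higher and RPN10 and RPT3 lower without replicate 2, and PRE2 and PUP3 higher and RPN10 lower without replicate 3. Calls over all genes became fewer too, for instance from 678 higher to 225 without replicate 2 and 237 without replicate 3 in snf2 minimal. The scaling moved the split of calls over all genes as well. In snf2 minimal it was 678 higher and 872 lower with centring, 920 and 769 without, and 1110 and 808 with quantile normalisation. In swi1 minimal these were 736 and 790, 908 and 684, and 1113 and 764. For snf2 in rich medium they were 721 and 822, 998 and 630, and 757 and 582, and for swi1 in rich medium 958 and 1093, 1226 and 866, and 1049 and 735. With all 12 arrays and the platform as a random block, 0 subunit genes were called in either minimal group or in swi1 rich and 1 (PRE9) was called lower in snf2 rich, and over all genes 94 higher and 265 lower calls were left in snf2 minimal.

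**Figure D2:**
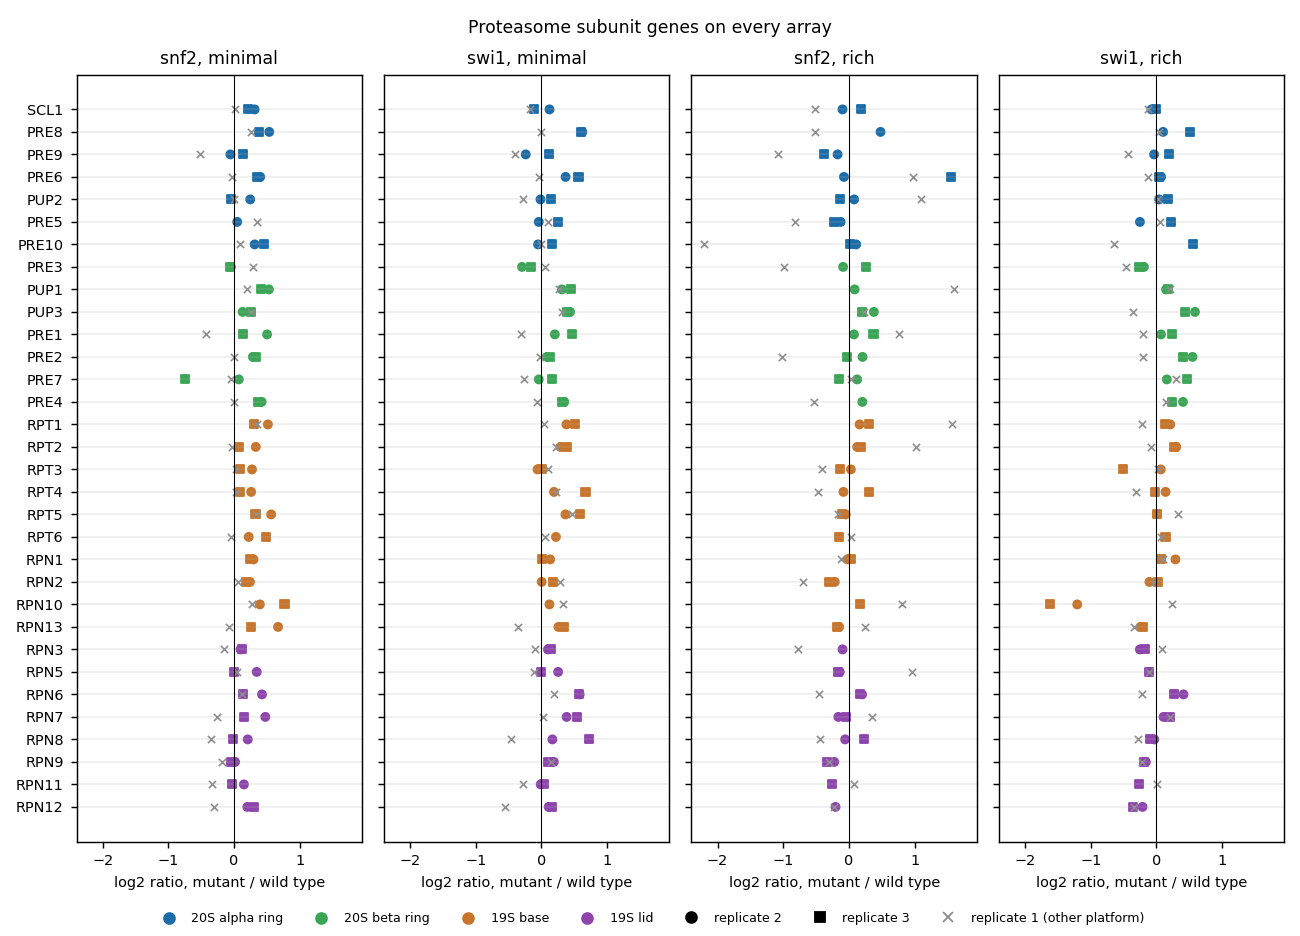
Log2 ratio (mutant over wild type, centred, horizontal axis) of each of the 32 subunit genes (vertical axis, coloured by subcomplex) in 1 panel per group, with circles for replicate 2, squares for replicate 3 and grey crosses for replicate 1 on other platforms. In minimal medium most coloured symbols lie to the right of 0, and in swi1 rich RPN10 lies far to the left, at -1.21 and -1.62.

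Among the alpha ring genes the clearest values were those of PRE8, which encodes an alpha subunit of the core. PRE8 (YML092C) was 0.54 and 0.38 on snf2 minimal, 0.62 and 0.60 on swi1 minimal, 0.48 on the only snf2 rich array that measured it, and 0.10 and 0.52 on swi1 rich. It rose by 0.46 ± 0.12 in snf2 minimal (limma, adjusted p = 0.0339, n = 2) and by 0.61 ± 0.12 in swi1 minimal (limma, adjusted p = 0.0145, n = 2). The minimal arrays overlapped with the rich ones. Replicate 1 gave 0.26, -0.01 (-0.006), -0.51 and 0.04 in the 4 groups, so only that of snf2 minimal was clearly above 0.

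PRE10 (YOR362C), another alpha subunit, was 0.31 and 0.46 on snf2 minimal, -0.05 and 0.15 on swi1 minimal, and 0.11 and 0.01 on snf2 rich. It rose by 0.39 ± 0.10 in snf2 minimal (limma, adjusted p = 0.031, n = 2), while its difference from swi1 minimal, 0.34 ± 0.14, was not called (limma, adjusted p = 0.838). On swi1 rich it was measured on 1 of the 2 arrays (0.56) and not tested. Its replicate 1 value in snf2 rich was -2.21, the lowest of any subunit gene on any array. With all 12 arrays the snf2 minimal estimate of PRE10 was -0.10.

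The other alpha subunit genes were SCL1, PRE9, PRE6, PUP2 and PRE5, and none of them was called. PRE9 encodes the alpha subunit that yeast can live without, and it was -0.06 and 0.13 on snf2 minimal and -0.24 and 0.12 on swi1 minimal. PRE6 disagreed between the arrays of snf2 rich, at -0.08 and 1.55 with 0.98 on replicate 1, and its estimate of 0.74 ± 0.31 was not called (limma, adjusted p = 0.0925). In all, 2 of 6 alpha ring genes were called higher in snf2 minimal (median 0.32), 1 of 7 in swi1 minimal (median 0.07), and 0 of 6 in each rich group (medians 0.01 and 0.07). Over all genes 12.8%, 13.7%, 19.5% and 19.1% were called higher in snf2 minimal, swi1 minimal, snf2 rich and swi1 rich. Without replicate 2 the adjusted p in snf2 minimal was 0.239 for PRE8 and 0.11 for PRE10, and without replicate 3 it was 0.131 and 0.236. In swi1 minimal it was 0.112 and 0.0957 for PRE8.

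Of the 3 beta subunits with a cutting site, 2 were called somewhere. PUP1 (YOR157C), which encodes the subunit with trypsin-like activity, was 0.53 and 0.41 on snf2 minimal, 0.31 and 0.46 on swi1 minimal, 0.09 on snf2 rich replicate 2 and 0.15 and 0.17 on swi1 rich. All 4 minimal values lay above the 3 rich ones. PUP1 rose by 0.47 ± 0.09 in snf2 minimal (limma, adjusted p = 0.0119, n = 2) and by 0.38 ± 0.09 in swi1 minimal (limma, adjusted p = 0.0268, n = 2), and its estimate of 0.16 in swi1 rich was not called. Replicate 1 gave 0.20, 0.27, 1.60 and 0.21 in snf2 minimal, swi1 minimal, snf2 rich and swi1 rich.

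PRE2 (YPR103W), which encodes the subunit with chymotrypsin-like activity, was 0.29 and 0.33 on snf2 minimal, 0.09 and 0.13 on swi1 minimal, 0.21 and -0.02 on snf2 rich, and 0.55 and 0.41 on swi1 rich. It rose by 0.31 ± 0.09 in snf2 minimal (limma, adjusted p = 0.0441, n = 2) and by 0.48 ± 0.09 in swi1 rich (limma, adjusted p = 0.00648, n = 2). The groups did not overlap within a medium, but the difference between the mutants was not called for PRE2. It was 0.20 ± 0.13 in minimal and -0.39 ± 0.14 in rich medium, snf2 against swi1 (limma, adjusted p = 0.866 and 0.741). The replicate 1 value of PRE2 in swi1 rich, -0.20, had the opposite sign to the tested arrays. PRE3 (YJL001W), which encodes the subunit with caspase-like activity, was -0.05 and -0.06 on snf2 minimal, -0.30 and -0.16 on swi1 minimal, -0.09 and 0.26 on snf2 rich, and -0.19 and -0.27 on swi1 rich. It was called in none of the 4 groups, and 7 of its 8 values were below 0, unlike those of PUP1 and PRE2.

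The other beta subunits carry no cutting site. PRE4 (YFR050C) was 0.42 and 0.37 on snf2 minimal, 0.35 and 0.32 on swi1 minimal, 0.20 on snf2 rich replicate 2, and 0.41 and 0.24 on swi1 rich. It rose in the 3 groups in which it was tested, by 0.39 ± 0.09, 0.33 ± 0.09 and 0.32 ± 0.09 (limma, adjusted p = 0.0215, 0.0393 and 0.0324, n = 2 each). Its replicate 1 values were 0.002, -0.07, -0.54 and 0.14 in snf2 minimal, swi1 minimal, snf2 rich and swi1 rich. PUP3 (YER094C) was 0.13 and 0.26 on snf2 minimal, 0.43 and 0.38 on swi1 minimal, 0.38 and 0.20 on snf2 rich, and 0.59 and 0.43 on swi1 rich. All 8 of its values were positive, and it rose in swi1 minimal (0.41 ± 0.09), snf2 rich (0.29 ± 0.10) and swi1 rich (0.51 ± 0.09; limma, adjusted p = 0.0177, 0.0462 and 0.00521, n = 2 each). PUP3 was the only subunit gene called in both mutants in rich medium. Replicate 1 of swi1 rich gave -0.36 for it.

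PRE1 had 8 positive values on the tested arrays, from 0.07 to 0.50. Its replicate 1 values were -0.43, -0.32, 0.76 and -0.21 in snf2 minimal, swi1 minimal, snf2 rich and swi1 rich. PRE1 was not called in any group, with the lowest adjusted p in swi1 minimal (0.33 ± 0.13, limma, adjusted p = 0.1, n = 2). PRE7 differed between the arrays of snf2 minimal, at 0.07 and -0.75. In all, 3 of 7 beta ring genes were called higher in each minimal group (medians 0.31 and 0.33), and in rich medium 1 of 5 for snf2 (0.09) and 3 of 7 for swi1 (0.31). The shares of all genes called higher were 12.8% and 13.7% in minimal and 19.5% and 19.1% in rich medium. With 1 array of the group left out, PRE2 and PUP3 stayed below 0.05 in swi1 rich without replicate 3 (limma, adjusted p = 0.0386 and 0.0308) and not without replicate 2 (0.0695 and 0.059). The other beta ring calls were each lost without either array of their group, PUP1 coming nearest in snf2 minimal without replicate 3 (0.0694).

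The base ATPases showed their calls mostly in minimal medium. RPT5 (YOR117W), which encodes 1 of the 6 ATPases of the ring, was 0.57 and 0.33 on snf2 minimal, 0.36 and 0.58 on swi1 minimal, -0.05 and -0.10 on snf2 rich, and 0.007 and 0.016 on swi1 rich. The 4 minimal values lay above the 4 rich ones. RPT5 rose by 0.45 ± 0.10 in snf2 minimal (limma, adjusted p = 0.0145, n = 2) and by 0.47 ± 0.10 in swi1 minimal (limma, adjusted p = 0.0127, n = 2). Replicate 1 gave 0.34 and 0.47 in minimal and -0.17 and 0.33 in rich medium.

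RPT1 (YKL145W) was 0.52 and 0.31 on snf2 minimal, 0.38 and 0.51 on swi1 minimal, 0.16 and 0.31 on snf2 rich, and 0.21 and 0.14 on swi1 rich. It rose by 0.41 ± 0.10 in snf2 minimal (limma, adjusted p = 0.0172, n = 2) and by 0.44 ± 0.10 in swi1 minimal (limma, adjusted p = 0.0143, n = 2), and all 8 values were positive. Its replicate 1 values were 0.35, 0.04, 1.57 and -0.22 in snf2 minimal, swi1 minimal, snf2 rich and swi1 rich. RPT2 (YDL007W), whose product opens the gate of the core, was 0.33 and 0.08 on snf2 minimal, 0.29 and 0.38 on swi1 minimal, 0.13 and 0.18 on snf2 rich, and 0.30 and 0.26 on swi1 rich. It rose in both swi1 groups, by 0.33 ± 0.09 in minimal and 0.28 ± 0.09 in rich medium (limma, adjusted p = 0.0353 and 0.0468, n = 2 each). RPT3, RPT4 and RPT6 were not called in any group in which they were tested. Of the ATPase genes 2 of 6 were called in snf2 minimal and 3 of 5 in swi1 minimal, and in rich medium 0 of 5 for snf2 and 1 of 5 for swi1. Over all genes 29.2% and 28.5% were called in minimal and 41.7% and 40.8% in rich medium, so the snf2 minimal count was near the background.

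Among the other base genes RPN10 stood apart. RPN10 (YHR200W), which encodes a ubiquitin receptor, was 0.39 and 0.77 on snf2 minimal and -1.21 and -1.62 on swi1 rich. It was measured on 1 array each of swi1 minimal (0.12) and snf2 rich (0.17) and not tested there. It rose by 0.58 ± 0.15 in snf2 minimal (limma, adjusted p = 0.041, n = 2) and fell by 1.41 ± 0.15 in swi1 rich (limma, adjusted p = 0.00195, n = 2), the only subunit gene that moved by over 1 on the log2 scale in a test. Replicate 1 of swi1 rich gave 0.24, and that of the other groups 0.27, 0.33 and 0.81, so both low values come from the spot of the platform used for the tests. The lower call in swi1 rich held without either array (limma, adjusted p = 0.00658 and 0.0186), and with all 12 arrays it was not called (adjusted p = 0.166).

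RPN13 (YLR421C), which encodes another ubiquitin receptor, was 0.67 and 0.26 on snf2 minimal, 0.26 and 0.34 on swi1 minimal, -0.15 and -0.18 on snf2 rich, and -0.24 and -0.20 on swi1 rich. On these tested arrays the 4 minimal values were positive and the 4 rich values negative. RPN13 rose by 0.47 ± 0.11 in snf2 minimal (limma, adjusted p = 0.0185, n = 2), and its estimate of 0.30 ± 0.11 in swi1 minimal was not called (adjusted p = 0.0823). Its replicate 1 values were -0.08, -0.35, 0.24 and -0.34 in snf2 minimal, swi1 minimal, snf2 rich and swi1 rich. They had the opposite sign to the tested arrays in all groups but swi1 rich. RPN1 and RPN2, which encode the large scaffold proteins of the base, were not called, with RPN1 nearest in snf2 minimal (0.27 ± 0.09, limma, adjusted p = 0.0615).

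Over the whole base 4 of 10 genes were called higher in snf2 minimal (median 0.31), and 3 of 8 in swi1 minimal (0.32). In rich medium it was 0 of 8 for snf2 (-0.02), and 1 higher and 1 lower of 9 for swi1 (0.01). Of all genes 12.8% and 13.7% were called higher in the minimal groups. In snf2 rich 19.5% were called higher and 22.2% lower, and in swi1 rich 19.1% and 21.7%. With 1 array left out, the calls that held were those of RPT5 in snf2 minimal without replicate 3 (limma, adjusted p = 0.0462) and in swi1 minimal without replicate 2 (0.0441), of RPN13 in snf2 minimal without replicate 3 (0.0236), and of RPN10 in swi1 rich. Without snf2 minimal replicate 2 the adjusted p was 0.163 for RPT5, 0.21 for RPN13, 0.182 for RPT1 and 0.0886 for RPN10. Without swi1 minimal replicate 3 it was 0.115 for RPT5, 0.112 for RPT1 and 0.198 for RPT2.

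The lid genes had the lowest medians of the 4 subcomplexes in rich medium on replicates 2 and 3. RPN6 (YDL097C), which encodes a scaffold of the lid that clamps core and cap together, was 0.43 and 0.13 on snf2 minimal, 0.58 and 0.57 on swi1 minimal, 0.20 and 0.16 on snf2 rich, and 0.41 and 0.27 on swi1 rich. It rose in both swi1 groups, by 0.58 ± 0.10 in minimal and 0.34 ± 0.10 in rich medium (limma, adjusted p = 0.00645 and 0.0311, n = 2 each). RPN7 (YPR108W) was 0.48 and 0.15 on snf2 minimal, 0.38 and 0.54 on swi1 minimal, -0.16 and -0.05 on snf2 rich, and 0.11 and 0.20 on swi1 rich. It rose in swi1 minimal by 0.46 ± 0.11 (limma, adjusted p = 0.0185, n = 2).

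RPN9 (YDR427W) was 0.02 and -0.05 on snf2 minimal, 0.19 and 0.11 on swi1 minimal, -0.22 and -0.34 on snf2 rich, and -0.16 and -0.19 on swi1 rich. It fell by 0.28 ± 0.09 in snf2 rich (limma, adjusted p = 0.0367, n = 2), and its replicate 1 value there was -0.30. RPN11 (YFR004W), which encodes the deubiquitinating enzyme of the lid, was 0.15 and -0.04 on snf2 minimal and -0.012 and 0.044 on swi1 minimal, with no call, and was measured on only 1 array of each rich group (-0.26 on both). In all, 0 of 8 lid genes were called in snf2 minimal and 2 of 8 in swi1 minimal (medians 0.14 and 0.14). In rich medium 1 of 5 was called lower in snf2 (median -0.10) and 1 of 7 higher in swi1 (median -0.11). Of all genes 29.2% and 28.5% were called in the minimal groups, 22.2% lower in snf2 rich and 19.1% higher in swi1 rich. None of the lid calls held with 1 array left out, RPN6 in swi1 minimal coming nearest, with adjusted p = 0.0533 without replicate 3 and 0.0626 without replicate 2.

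The 2 mutants were then compared with each other. In minimal medium 0 of 29 subunit genes differed between snf2 and swi1, and 0% of 5123 genes did, with 0 of the subunit genes at an unadjusted p under 0.05. In rich medium 0 of 23 differed, against 0.0294% of 3397 genes, with 1 subunit gene at an unadjusted p under 0.05 (PRE2, -0.39, limma, adjusted p = 0.741). The 95% intervals of these differences reached 0.28 to 1.04 to either side in minimal medium, with a median of 0.35, and 0.29 to 1.01 in rich medium, with a median of 0.36. The medians against wild type, 0.26 and 0.14 in minimal and 0.02 and 0.06 in rich medium, were smaller than the narrowest of these intervals, so a difference between the mutants of that size was not detectable. RPN10, called in opposite directions in snf2 minimal and swi1 rich, could not be compared within a medium. In minimal medium 5 genes, PRE4, PRE8, PUP1, RPT1 and RPT5, were called higher in both mutants, of 29 tested in both, against 9% of 5123 genes. On all 4 minimal arrays 18 of 29 lay above 0, against 28.2% of 5123 genes. Whether wild-type RNA was shared between the arrays is not given, so these counts may share their controls.

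Minimal and rich medium were compared within each mutant. In snf2 0 of 23 subunit genes differed by medium (4 at an unadjusted p under 0.05, or 17.4%, where 21.2% of all genes were), against 5% of 3559 genes, of which 1.29% were higher and 3.71% lower in minimal. In swi1 0 of 28 differed (7 at an unadjusted p under 0.05, or 25%, where 25.5% of all genes were), against 6.26% of 4890 genes, of which 2.07% were higher and 4.19% lower. The median difference, minimal minus rich, was 0.22 in snf2 and 0.21 in swi1, against 0.02 (0.0245) and 0.05 (0.046) over all genes, and 19 of 23 and 22 of 28 were positive. The beta ring did not share this: its median difference was -0.10 in snf2, with 2 of 5 positive, and 0.001 in swi1, with 4 of 7 positive. The intervals reached 0.29 to 1.00 to either side in snf2 and 0.28 to 1.03 in swi1. On replicate 1, where the media also differ by platform, the median difference of the genes tested was 0.10 and 0.05.

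With the mean of both mutants in each medium, a contrast added after seeing the data, 2 of 22 subunit genes were higher in minimal medium and 0 lower, against 7.73% and 9.57% of 3207 genes, or 17.3% in all. RPN13 differed by 0.58 ± 0.11 (limma, adjusted p = 0.0139) and RPT5 by 0.49 ± 0.10 (limma, adjusted p = 0.0175), n = 4 arrays per medium. With swi1 minimal replicate 3 left out RPN13 was no longer called (adjusted p = 0.0502), nor was RPT5 without snf2 minimal replicate 2 (0.0589) or swi1 minimal replicate 3 (0.0547). On replicate 1, where the media also differ by platform, the same difference was -0.17 for RPN13 and 0.33 for RPT5.

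The order of the arrays was also counted, again after seeing the data. For 8 of 29 subunit genes (27.6%) every minimal array lay above every rich array of replicates 2 and 3, against 16.3% of 4956 genes. Rich arrays without a value were left out of this order, and 4 of the 8 genes (PUP1, RPN3, RPN11 and RPN12) lacked at least 1. Of the 22 measured on all 8 arrays 4 had the order (18.2%: RPN5, RPN9, RPN13 and RPT5), against 14.8% of 3207 genes, which is near the background. For 0 of 29 the order was the opposite, against 12.9% of all genes. The 8 genes were PUP1 of the beta ring, RPT5 and RPN13 of the base and RPN3, RPN5, RPN9, RPN11 and RPN12 of the lid, so 5 of 8 lid genes and 0 of 6 alpha ring genes had this order. The lid values were small: RPN12 ranged from 0.11 to 0.31 on the minimal and from -0.36 to -0.20 on the rich arrays, and RPN3 from 0.10 to 0.15 and from -0.25 to -0.10. On replicate 1, where the media also differ by platform, minimal lay above rich for 3 of the 8 in snf2 and 4 of the 8 in swi1.

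**Figure D3:**
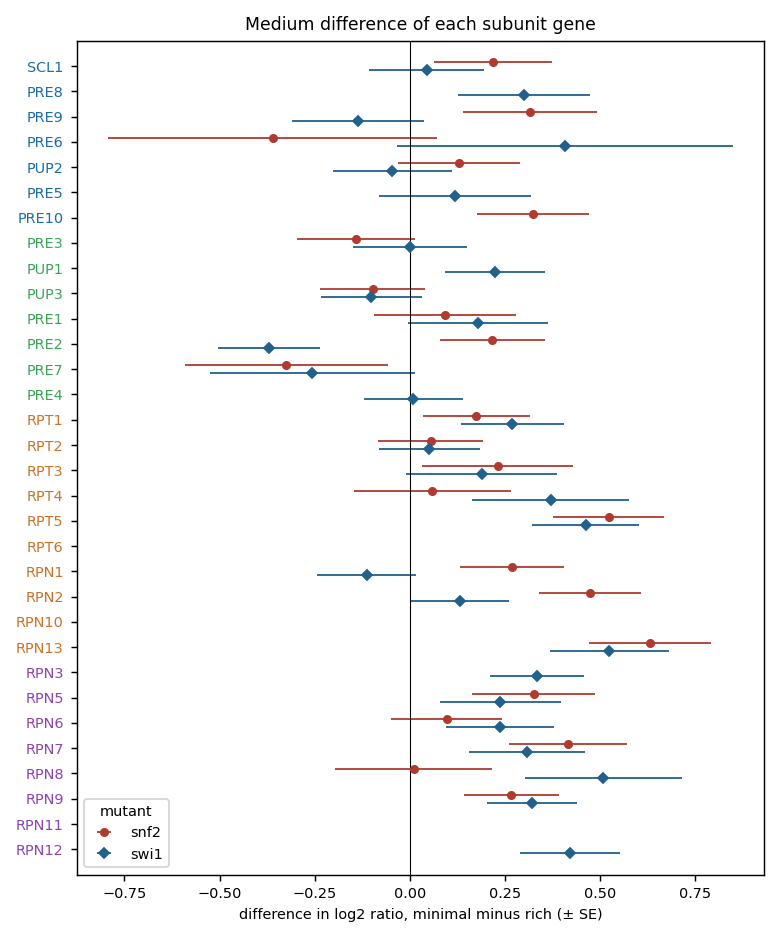
Minimal minus rich difference in log2 ratio (horizontal axis) of each subunit gene in snf2 (circles) and swi1 (diamonds), with bars of ± 1 of limma's standard errors. Label colours give the subcomplex, and a missing point means that the gene was not tested in that mutant. Most estimates lie to the right of 0, with RPN13 at 0.63 and 0.52, and none was called within a mutant.

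Replicate 1, which no test used, gave a mixed picture of the calls. In snf2 minimal 8 of the 9 called subunit genes (not RPN13) had the same sign on it, and 82.6% of all called genes did. In swi1 minimal it was 7 of 9, against 80.5% of all called genes, and in snf2 rich 2 of 2, against 64.7%. In swi1 rich it was 1 of 6, against 73.3% of all called genes: PRE4 kept its sign, while PRE2, PUP3, RPN6, RPT2 and RPN10 did not. Of the 8 in snf2 minimal, PRE4 and PRE2 had very small replicate 1 values, 0.002 and 0.006. Among all subunit genes tested and measured there, 17 of 30 (56.7%) kept the sign in snf2 minimal, against 66.9% of all genes. In swi1 minimal 12 of 29 (41.4%) did, against 65.4%. In rich medium it was 11 of 24 (45.8%) for snf2 and 16 of 29 (55.2%) for swi1, against 57.2% and 62.0%. Each of these shares lay below that of all genes. The replicate 1 array of snf2 rich was much more variable than the others, with an SD of 1.41 over genes.

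The transcription factor of these genes was called in 3 groups, as were PRE4 and PUP3 and no other subunit gene. RPN4 (YDL020C) was 0.99 and 0.59 on snf2 minimal, 0.23 and 0.09 on swi1 minimal, 0.65 and 0.50 on snf2 rich, and 0.97 and 0.92 on swi1 rich. It rose by 0.79 ± 0.11 in snf2 minimal, 0.57 ± 0.12 in snf2 rich and 0.94 ± 0.11 in swi1 rich (limma, adjusted p = 0.00274, 0.00672 and 0.00104, n = 2 each), while in swi1 minimal its estimate of 0.16 ± 0.11 was not called (adjusted p = 0.344). RPN4 had its largest estimate in swi1 rich, where the subunit median was 0.06, and its smallest in swi1 minimal. There 9 of 30 subunit genes were called higher, against 13.7% of all genes called higher and 28.5% called in all. RPN4 was not called between the mutants: snf2 against swi1 was 0.63 ± 0.16 in minimal and -0.37 ± 0.17 in rich medium (limma, adjusted p = 0.837 and 0.754). Whether the subunit genes follow RPN4 was not tested. The minimal minus rich difference of RPN4 in swi1 was -0.78 ± 0.16 (limma, adjusted p = 0.0358), a call that was lost without any 1 of the 4 swi1 arrays (adjusted p from 0.0772 to 0.18). Its call in snf2 rich was lost without replicate 2 (0.0715). Replicate 1 gave 0.48, -0.04, 0.76 and 0.54.

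Other factors known to act on proteasome genes or on RPN4 moved in several ways. PDR3, a regulator of drug resistance genes that also binds the RPN4 promoter, was -2.71 and -2.72 on snf2 minimal, -2.58 and -2.77 on swi1 minimal, -2.28 and -2.29 on snf2 rich and -2.28 on swi1 rich replicate 3. It fell in the 3 groups tested, with estimates of -2.72, -2.67 and -2.28 (limma, adjusted p = 1.11e-05, 1.37e-05 and 1.53e-05, n = 2 each), and its replicate 1 values were -1.99, -2.11, -3.20 and -2.06. PDR1, YAP1 and HSF1 had estimates from -0.07 to 0.40, and of these PDR1 alone was called, in snf2 minimal (0.40 ± 0.11, limma, adjusted p = 0.034).

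**Figure D4:**
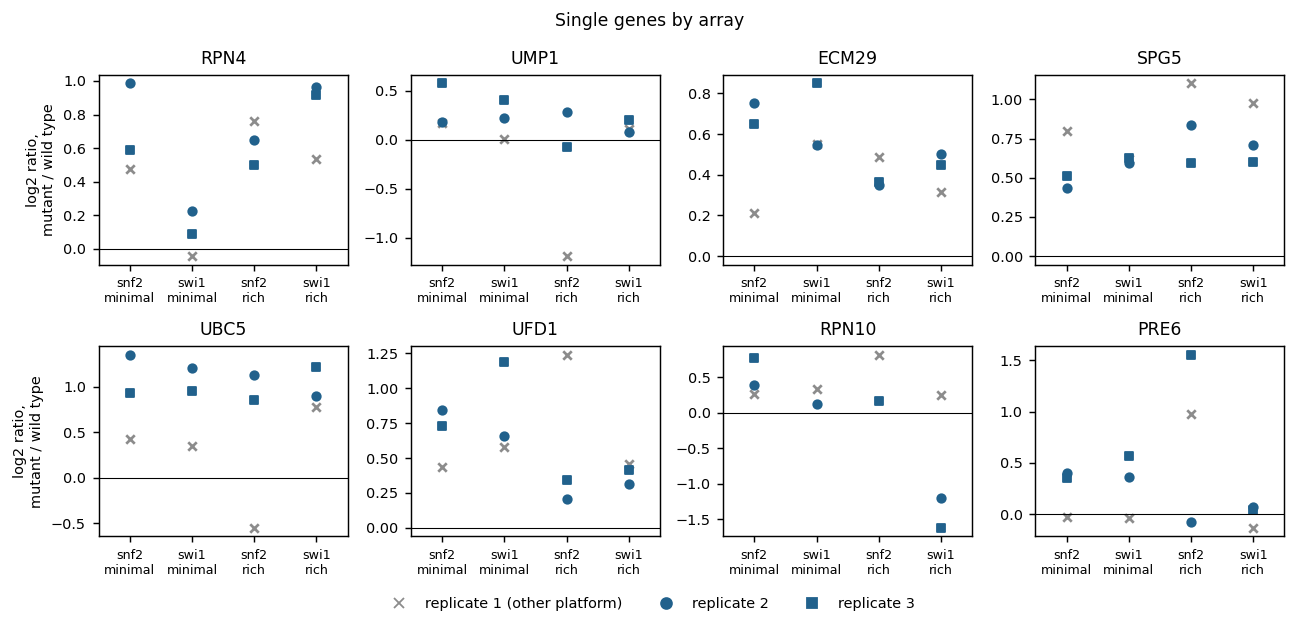
Log2 ratio (mutant over wild type, centred, vertical axis, scaled separately in each panel) of RPN4, UMP1, ECM29, SPG5, UBC5, UFD1, RPN10 and PRE6 on the arrays of each group, with circles for replicate 2, squares for replicate 3 and grey crosses for replicate 1. RPN10 drops to -1.21 and -1.62 in swi1 rich on replicates 2 and 3 only, and RPN4 lies at 0.97 and 0.92 on them.

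Of 17 genes for assembly or proteasome-bound factors, 4 of 16 tested were called higher in each minimal group, and in rich medium 4 of 12 for snf2 and 4 of 15 for swi1. The count of lower calls was 0 in each group. Their medians were 0.35, 0.20, 0.22 and 0.21. Of all genes 12.8%, 13.7%, 19.5% and 19.1% were called higher in snf2 minimal, swi1 minimal, snf2 rich and swi1 rich. The shares called lower were 16.4%, 14.8%, 22.2% and 21.7%. ECM29, which encodes a protein that tethers core and cap, was 0.75 and 0.65 on snf2 minimal, 0.55 and 0.85 on swi1 minimal, 0.35 and 0.36 on snf2 rich, and 0.50 and 0.45 on swi1 rich, and rose in all 4 groups (limma, adjusted p = 0.00246, 0.00295, 0.0269 and 0.00861, n = 2 each). SPG5, which encodes a protein needed for proteasome assembly in stationary phase, rose in all 4 as well, by 0.47, 0.61, 0.72 and 0.65 (± 0.09, 0.09, 0.10 and 0.09), and its 4 replicate 1 values were positive, from 0.62 to 1.10. CUZ1 rose in both minimal groups (0.67 and 0.48), and HUL5, which encodes a proteasome-bound ubiquitin ligase, rose in both minimal groups and swi1 rich (0.43, 0.47 and 0.38). UMP1, the maturation chaperone of the core and a known Rpn4 target, was 0.18 and 0.58 on snf2 minimal, 0.22 and 0.41 on swi1 minimal, 0.28 and -0.07 on snf2 rich, and 0.08 and 0.21 on swi1 rich, and was called in none. The rich calls of ECM29 were lost without either array of the group (adjusted p from 0.0625 to 0.142), as were the snf2 minimal calls of SPG5 (0.0624 and 0.101), both CUZ1 calls except that in swi1 without replicate 2, and the 3 HUL5 calls (0.0539 to 0.233). SPG5 was called in all 4 groups with all 12 arrays, ECM29 only in swi1 minimal, and CUZ1 and HUL5 in none.

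The ubiquitin genes were called in both directions, as were all genes. Of 23 genes of ubiquitin and its conjugation, 3 were called higher and 4 lower of 21 tested in snf2 minimal, and 3 and 5 of 23 in swi1 minimal. In rich medium it was 1 and 4 of 15 for snf2 and 3 and 5 of 20 for swi1. Over all genes 12.8% were called higher and 16.4% lower in snf2 minimal, and 13.7% and 14.8% in swi1 minimal. For rich medium these were 19.5% and 22.2% in snf2 and 19.1% and 21.7% in swi1. In all, 29.2%, 28.5%, 41.7% and 40.8% of genes were called in the 4 groups, so the ubiquitin totals lay near or below the background. UBC5, a stress-induced conjugating enzyme, rose by 1.14, 1.08, 0.99 and 1.06 (± 0.14 each). RPL40A, RPL40B and RPS31, which encode ubiquitin fused to ribosomal proteins, fell in all 4 groups, RPL40A by 0.60, 0.79, 1.08 and 0.81 and RPS31 by 0.87, 0.75, 0.61 and 0.77. RPL40A and RPL40B are near-identical copies, so their spots may not tell them apart. UBC5 was called in all 4 groups with 1 array left out and in none with all 12 arrays (adjusted p = 0.233, 0.249, 0.52 and 0.128), where its snf2 rich estimate was 0.28, and its replicate 1 value in snf2 rich was -0.55. RPL40A was also called in none with all 12 arrays (adjusted p from 0.357 to 0.665), with -0.27 in snf2 rich, where replicate 1 gave 1.09. RPS31 was called in all 4 and RPL40B only in rich medium with all 12 arrays. RPL40A was lost in snf2 minimal without replicate 2 (0.0616), RPL40B in both minimal groups without either array (0.0699 to 0.3), and RPS31 in swi1 minimal without either array (0.0513 and 0.0567) and in snf2 rich without replicate 2 (0.0805).

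Of 17 genes for ubiquitin receptors, the Cdc48 machinery and deubiquitinases, 2 were called higher and 1 lower of 17 in snf2 minimal, and 3 and 0 of 17 in swi1 minimal. In rich medium it was 1 and 2 of 12 for snf2 and 3 and 3 of 17 for swi1. Over all genes the shares higher and lower were 12.8% and 16.4% in snf2 minimal and 13.7% and 14.8% in swi1 minimal. For rich medium these were 19.5% and 22.2% in snf2 and 19.1% and 21.7% in swi1. UFD1, a Cdc48 cofactor, rose by 0.79 ± 0.13 and 0.92 ± 0.13 in the minimal groups. UBP15 rose by 0.51, 0.47 and 0.53 in snf2 minimal, swi1 minimal and swi1 rich. RFU1, which encodes an inhibitor of the deubiquitinase Doa4, fell by 0.60 in snf2 minimal and 0.75 in swi1 rich, and UBP1 fell by 0.66 and 0.54 in the rich groups. UFD1 was lost in snf2 minimal without replicate 2 (adjusted p = 0.0602), UBP15 in both minimal groups without either array (0.054 to 0.106), RFU1 in snf2 minimal without either array (0.114 and 0.0943) and in swi1 rich without replicate 3 (0.0526), and UBP1 in swi1 rich without replicate 2 (0.0714). With all 12 arrays the calls left were those of UFD1 in swi1 minimal and UBP1 in snf2 rich.

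The CCT chaperonin, another ring complex of single-copy subunits, was set beside the proteasome. In each minimal group 0 of 8 CCT genes were called (0 and 1 at an unadjusted p under 0.05), with medians of -0.08 and 0.0045. In rich medium 6 of 7 were called lower in snf2 and 4 of 8 in swi1, with medians of -0.50 and -0.35. Of all genes 22.2% were called lower in snf2 rich and 21.7% in swi1 rich, and 29.2% and 28.5% were called in the minimal groups. CCT7 was -0.57 and -0.66 on snf2 rich and -0.37 and -0.47 on swi1 rich, and CCT8 was -0.53 and -0.30, and -0.41 and -0.48, on the same arrays. CCT7 was lost in swi1 rich without either array (adjusted p = 0.0545 and 0.13), and CCT8 in both rich groups without either array (0.0858 to 0.277). Of these calls, that of CCT7 in snf2 rich alone was left with all 12 arrays. The median difference, minimal minus rich, of the CCT genes was 0.52 in snf2 and 0.38 in swi1.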

How the data were processed

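Per the labels, 12 two-channel arrays were scanned with ScanAlyze. The deposited values are log2 ratios, 1 per probe and array, in 3 tables, 1 per platform. Base 2 was read from the 8 arrays of replicates 2 and 3, on which 12.3% to 15.5% of values fell on the log2 of whole-number ratios, against 5.85% to 6.53% on a shifted lattice. It was only taken over for replicate 1. Normalisation, dyes and signal over background are not given in the sources used here. Probes were named from the platform annotation (6956 of 8832 on the 8 arrays, where the subunit genes had 36 spots).

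Spots were averaged per gene, each array was centred on its median over genes, and the sign was turned. Centring moved 3 of the 8 tested arrays by over 0.1 (snf2 rich replicates 2 and 3 by -0.11 each, swi1 rich replicate 3 by -0.10), and replicate 1 of snf2 rich by -0.49 and of swi1 minimal by -0.14. limma 3.58.1 (R 4.3.3) was fitted with 1 mean per group, separately for each comparison and two-sided, leaving out genes with a missing value in a group compared, and was tested on simulated data. Replicate numbers did not pair the arrays: deviations of same-numbered arrays correlated at -0.03 to 0.02 over 6 group pairs.

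Values on each array are given for called subunit genes and the 3 catalytic subunits. Of other lists RPN4, UMP1 and up to 4 genes called in at least 2 groups were named, some by estimates only. These 4 were those with the largest mean absolute estimate. PDR1, YAP1 and HSF1 are given as the rest of a list of 5. PRE1, PRE6, PRE7, PRE9, RPN1, RPN2, RPN3, RPN5, RPN11 and RPN12 were named after their values were seen. Subunits and lists were chosen with earlier results of these data known. Probe and promoter sequences were not used here. Alternatives were other scalings, spot summaries, gene filters, a replicate block, all 12 arrays and each array left out.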

Additional observations from a re-analysis of the deposited data

Results flagged for a closer look

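A difference between media was called by limma for 6 of the genes named by the rules above. Over all genes 17.3% of 3207 were called with the mean of both mutants, and 6.26% of 4890 within swi1. Genes of the lists that were not named had such calls too. With the mean 4 of 7 CCT genes were called, and within swi1 1 of 15 assembly genes was lower. With the mean of both mutants, minimal minus rich was 0.58 ± 0.11 for RPN13 (adjusted p = 0.0139), 0.49 ± 0.10 for RPT5 (adjusted p = 0.0175), 0.53 ± 0.13 for UFD1 (adjusted p = 0.0305), 0.44 ± 0.10 for CCT7 (adjusted p = 0.0253) and 0.59 ± 0.13 for CCT8 (adjusted p = 0.0217). RPN13, RPT5 and UFD1 had their called values in minimal medium, whereas CCT7 and CCT8 had theirs, below 0, in rich medium. Within swi1, minimal minus rich was -0.78 ± 0.16 for RPN4 (adjusted p = 0.0358), opposite in sign to the median of the subunit genes in the same contrast, 0.21. With 1 of the 8 arrays left out in turn, UFD1 was below the threshold only without swi1 minimal replicate 2 (adjusted p otherwise 0.0509 to 0.0969), CCT7 lost its call without snf2 minimal replicate 2, swi1 minimal replicate 2, snf2 rich replicate 3 or swi1 rich replicate 3 (0.0567 to 0.0808), and CCT8 without either snf2 minimal array, swi1 minimal replicate 3, snf2 rich replicate 2 or swi1 rich replicate 3 (0.051 to 0.0768). RPN13 lost it without swi1 minimal replicate 3 (0.0502) and RPT5 without snf2 minimal replicate 2 (0.0589) or swi1 minimal replicate 3 (0.0547), and RPN4 lost it without any 1 of the 4 swi1 arrays (0.0772 to 0.18). With all 12 arrays RPT5 (adjusted p = 0.0259) and CCT8 (0.0252) kept the call, while RPN13 (0.0895), UFD1 (0.215), CCT7 (0.0633) and RPN4 (0.0769) lost it.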

How the results depend on the processing

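The counts of called subunit genes depended on the settings more than the medians did. The calls over all genes moved with the settings as well. Without centring, 14 were called higher in snf2 minimal, where 920 of all 5307 genes were, against 678 with centring. In snf2 rich 2 were called higher and 0 lower, against 998 and 630 of 3698 genes. With quantile normalisation, 18 were called higher in snf2 minimal (median 0.38) and 0 lower in snf2 rich, against 1110 of 5307 and 582 of 3698 genes. On genes measured on all 8 arrays, 4 of 22 were called higher in snf2 minimal and 0 lower in swi1 rich, since RPN10 drops out. Of all 3207 such genes 466 were called higher in snf2 minimal and 732 lower in swi1 rich, so the first count was near the background. With the median over spots, 2 were called lower in swi1 rich, against 1104 of 5026 genes. With all 12 arrays and the platform as a random block, 0 were called higher in each of the 4 groups and 0 lower in swi1 rich, and the median was 0.12 in snf2 minimal and -0.13 in snf2 rich. Over all genes that fit left 94, 100, 203 and 170 higher calls in snf2 minimal, swi1 minimal, snf2 rich and swi1 rich, and 258 lower in swi1 rich. PRE10 in snf2 minimal reversed to -0.10 there, and the cause was not tested. Requiring only 1 array of each group gave 1 gene (RPN10) higher in minimal medium in swi1 and 4 (RPN10, RPN12, RPN13 and RPT5) with the mean of both mutants, and all 12 arrays gave 1 with that mean. With the replicate number as a block, 6, 7, 0 and 3 were called higher in snf2 minimal, swi1 minimal, snf2 rich and swi1 rich, and 0 lower in snf2 rich. Over all genes these counts were 586, 621, 662 and 853 higher, and 776 lower. The block changed no other count of subunit calls by over 1.5 times. With each array left out in turn, the ranges were 0 to 2 higher and 0 to 1 lower in snf2 minimal, 0 to 2 higher in swi1 minimal, 0 to 1 higher and 0 lower in snf2 rich, and 2 higher and 1 to 2 lower in swi1 rich. They were 0 to 2 higher for snf2 against swi1 in rich medium, with a median of -0.11 to 0.08 (0.0815) in minimal medium, 0 to 1 in either direction for minimal against rich in snf2, and 0 to 4 higher with the mean of both mutants. Such fits take the spread of a lone array from the other groups. Of 2692 values of named genes under the alternatives, 2476 stayed on their side of the threshold, 188 lost and 27 gained a call, and 1 called value reversed. Changes of sign where neither fit gave a call were counted among the 2476. With 2 arrays per group and no signal over background, neither a small change nor the absence of one can be shown for a single subunit gene.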
